A study of Mus musculus with 9 samples.

Results

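Foxo1-deficient germinal center B cells were compared with wild-type light zone (LZ) cells, to describe which light zone functions they kept and which they lost. The 6 libraries were chosen by title, 3 labelled Foxo1(f/f) GC and 3 labelled Foxo1(+/+) LZ, out of 9 in the series. The other 3, wild-type dark zone (DZ) cells, entered the model for its estimate of the spread and are shown beside LZ for orientation. C57BL/6 mice had been given 2 kinds of donor B cell in equal numbers. One kind was Foxo1(+/+) and CD45.1/1, called wild-type here, and the other Foxo1(f/f) and CD45.1/2. All donor cells, those of the controls included, were B1-8hi(KI/+) and ERT2cre(KI/+). B1-8hi is an antigen receptor knock-in with affinity for the hapten NP, and ERT2cre makes a Cre recombinase that becomes active under tamoxifen, so the wild-type cells were exposed to it too. The labels name no depletion of the recipients' own cells. The mice were immunized with NP-CGG in alum on day 0, given tamoxifen by mouth on days 7, 8 and 9, and their spleens were sorted on day 12. All groups were gated on CD45.1+ and CD45.2-, on binding of NP, and on B220+ GL7+ CD38- as the surface of germinal center B cells, with CD86hi CXCR4lo added for LZ and CD86lo CXCR4hi for DZ, and about 10000 cells went into each library. No zone gate was set for the Foxo1(f/f) cells, so genotype and gate change together in this comparison and cannot be told apart. The labels give those cells the genotype CD45.1/2 and yet a CD45.2- gate, a conflict that was not settled here. The age of the mice and the promoter that drives ERT2cre are not given in the sources used here. Whether each replicate was a separate animal is not in the labels, so the p-values cover the spread among these samples, which may be technical.

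Foxo1 is a forkhead transcription factor that is held out of the nucleus when PI3K and Akt signalling is active. Germinal center B cells proliferate and hypermutate in the dark zone, then move to the light zone, where they take up antigen, present it on MHC class II and receive help from T follicular helper cells through CD40 and cytokine receptors. That help acts through NF-kB, Myc and mTORC1, which drive survival genes, ribosome production and entry into the cell cycle.

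Values are FPKM (fragments scaled by transcript length and by library size), listed for replicates 1, 2 and 3 in that order. A change is the difference of group means on the log2(FPKM + 1) scale, Foxo1-deficient minus LZ, which understates the change of low genes. "Changed" means an adjusted p (limma, Benjamini-Hochberg over all genes tested, two-sided) under 0.05, and "within a factor of 2" means that the 95% interval of the change lay wholly between -1 and 1. Of 23700 entries per table, 11229 to 12495 were above 0, and the relative depth of the libraries, estimated from the deposited intervals, was 0.832 to 1.11. Foxo1-deficient replicate 3 stood apart, with the lowest depth, a correlation with the other 2 of its group of 0.871 and 0.883 (LZ pairs 0.911 to 0.917), and 239 of 9071 well covered genes listed at exactly 0, against 11 to 73 in the other 8 libraries. A 0 in these files can therefore be a failed estimate, and genes with such values are given by library, with no fold against a group at 0. In bulk RNA, fewer cells with a transcript and less transcript per cell cannot be told apart. The B lineage genes Cd79a and Pax5 lay within a factor of 2. Cd79a, a chain of the antigen receptor complex, was 496, 408 and 373 in LZ and 457, 389 and 349.9 in Foxo1-deficient cells, and the B cell transcription factor gene Pax5 was 124, 114 and 108 and 121, 108 and 102.

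Foxo1 (chr3:52072259-52154031, mm9), the targeted gene, was at 14.8, 18.7 and 22.1 in LZ and 3.01, 1.79 and 0.808 in the Foxo1-deficient libraries, and fell by 2.82 (SE 0.30, adjusted p = 0.000929). Its highest Foxo1-deficient library lay below every LZ library, and the fall passed under every alternative run. The value covers the whole gene, and the sources used here do not give the deleted part. Among the sort genes, Cd86, the costimulatory ligand that set the LZ gate, was 58.8, 55 and 55.7 without any CD86 gate and 52.4, 58.3 and 44.3 in LZ. Its change was 0.13 (95% interval -0.26 to 0.53), while the DZ libraries were at 16.9, 18.2 and 12.5. Cxcr4, the chemokine receptor whose low level set the other side of that gate, was 24.7, 17.6 and 24.6 against 28.9, 33 and 37.9 in LZ, with every Foxo1-deficient library below every LZ library and a change of -0.56 that did not pass (adjusted p = 0.21). Cd38, whose product was gated negative in all groups, was low, at 2.79, 1.41 and 5.13 against 3.94, 6.74 and 7.03. Ptprc, which encodes CD45, was at 216, 202 and 219.9 against 159, 180.1 and 162 (change 0.35, adjusted p = 0.226). It passed with quantile normalization (adjusted p = 0.0444), where the change was 0.48.

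Among the 9669 genes that reached an FPKM of 1 in 3 or more of the 6 libraries, 172 changed (1.78%), 77 higher (0.796%) and 95 lower (0.983%) in Foxo1-deficient cells. Within a factor of 2 of LZ lay 5079 (52.5%), and 4422 were neither, so their change is not settled in either direction at this precision. The share within a factor of 2 depends on the level of the genes. With an FPKM minimum of 5 in 3 libraries, it was 4155 of 6499 genes. Where the share of a list is set beside 52.5%, the levels were not matched. The median change of all tested genes was -0.02, and 1310 genes had an unadjusted p under 0.05. By rank alone, all 3 Foxo1-deficient libraries lay above all 3 LZ libraries in 794 genes (8.21%) and below in 919 (9.5%). The count of changed genes fell most when an LZ library was left out: it was 75, 64 and 70 without LZ replicate 1, 2 and 3, and 154, 119 and 107 without Foxo1-deficient replicate 1, 2 and 3. With only the 6 libraries fitted it was 70, and with voom precision weights on the fragments implied by the deposited intervals it was 136. Where the call of a gene named by the rule given below did not last, the libraries whose removal, 1 at a time, ended it are given. The number of the other alternative fits (at most 9) that ended it stands beside them. Calls of genes outside that rule were not followed through the alternatives.

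**Figure D1:**
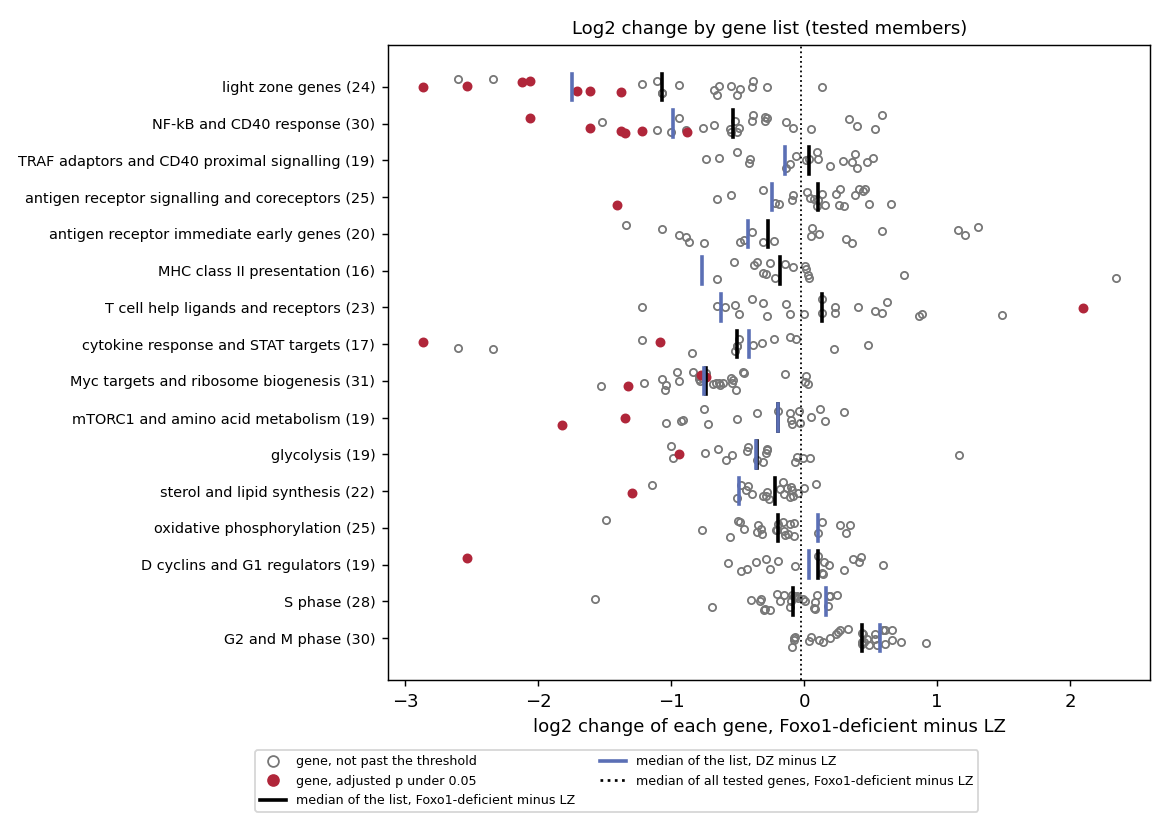
Log2 change of each tested member (points, Foxo1-deficient minus LZ; filled red where adjusted p was under 0.05) of 16 gene lists, with the median of the list (black bar), the median of the same list for DZ minus LZ (blue bar) and the median of all tested genes (dotted line); the number of tested members stands in brackets. Light zone genes had a median of -1.07 and Myc and ribosome biogenesis genes of -0.74, while antigen receptor signalling stood at 0.10 and MHC class II at -0.18.

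Among 24 genes known for high levels in the light zone, those that changed were all lower, and Cd86 was the only 1 whose change was above 0. All 24 were tested, 7 changed, all lower (0.983% of all genes), 3 (12.5%, against 52.5% of all genes) lay within a factor of 2 and 14 were neither, and the median change was -1.07. In 16 of the 24, every Foxo1-deficient library lay below every LZ library (against 9.5% of all genes). The count lower was 5 without LZ replicate 1 or LZ replicate 2 and 12 with a pseudocount of 5, its lowest and highest over the alternatives. Cd83, an activation marker that stabilizes MHC class II and CD86 at the surface, was 211, 163 and 182 in LZ and 62.5, 49 and 56.8 in Foxo1-deficient cells (change -1.71, SE 0.15, adjusted p = 0.000224). Fcer2a, the low-affinity IgE receptor CD23, went from 162, 195 and 143 to 26.7, 20.9 and 18.5 (-2.87, SE 0.21, adjusted p = 4.59e-05). The groups did not overlap in either gene, and the Foxo1-deficient libraries lay near the DZ values of 50.6, 46.5 and 50.8 for Cd83 and 37.1, 30.8 and 22.7 for Fcer2a. Ccnd2, a D-type cyclin that help from T cells induces, was 13.9, 15.2 and 13.8 in LZ and 0.641, 2.76 and 1.94 in Foxo1-deficient cells (-2.54, SE 0.35, adjusted p = 0.00474).

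The Bcl2a1 genes encode A1, a survival protein of the Bcl2 family whose transcription NF-kB drives. Bcl2a1b fell from 101, 72.2 and 85.4 to 11.1, 32.7 and 18.1 (-2.12, adjusted p = 0.00757), Bcl2a1d by 1.61 (adjusted p = 0.00542) and Bcl2a1a by 1.38 (adjusted p = 0.0154). They are near-identical copies whose reads the counting could have split, so they are uncertain one by one. Ccl22, a T cell attracting chemokine gene, was 7.2, 8.85 and 3.7 in LZ and 0, 1.03 and 1.57 in Foxo1-deficient cells (-2.06, adjusted p = 0.0341). Cd83, Fcer2a, Ccnd2, Bcl2a1b and Bcl2a1d passed under every alternative run. The Bcl2a1a call was lost without LZ replicate 1, 2 or 3 and in 1 of 9 other fits (adjusted p up to 0.122), and that of Ccl22 without LZ replicate 1 or 2 or Foxo1-deficient replicate 1 or 2 and in 5 of 8 other fits (up to 0.212).

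Other members lay lower without passing. Il4i1, a secreted amino acid oxidase induced by IL-4 and CD40, was 97.8, 67.4 and 67.3 in LZ and 19.5, 18.2 and 4.2 in Foxo1-deficient cells (adjusted p = 0.0513). Batf, an AP-1 family factor, was 46.8, 34.8 and 12.7 against 4.53, 4.55 and 4.89 (adjusted p = 0.0561), and Myc was 21.4, 23.8 and 25.9 against 11.4, 12.8 and 8.38 (-1.07, adjusted p = 0.06). In each of these genes the groups did not overlap. The members nearest to no change were Cd86, the adhesion molecule gene Icam1 (15.8, 29.2 and 31.1 against 15, 20.1 and 26), the NF-kB subunit gene Rel (21.8, 27.7 and 28.1 against 22.2, 21.1 and 15.7) and Egr1 (23.5, 17.6 and 20.1 against 11, 19 and 16.7). Of these, Cd86, Icam1 and Rel had their interval within a factor of 2, and the groups overlapped in all 4. In DZ, which shares the LZ libraries as its reference, 18 of the 24 were lower than LZ (1.44% of all genes), with a median of -1.75.

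**Figure D2:**
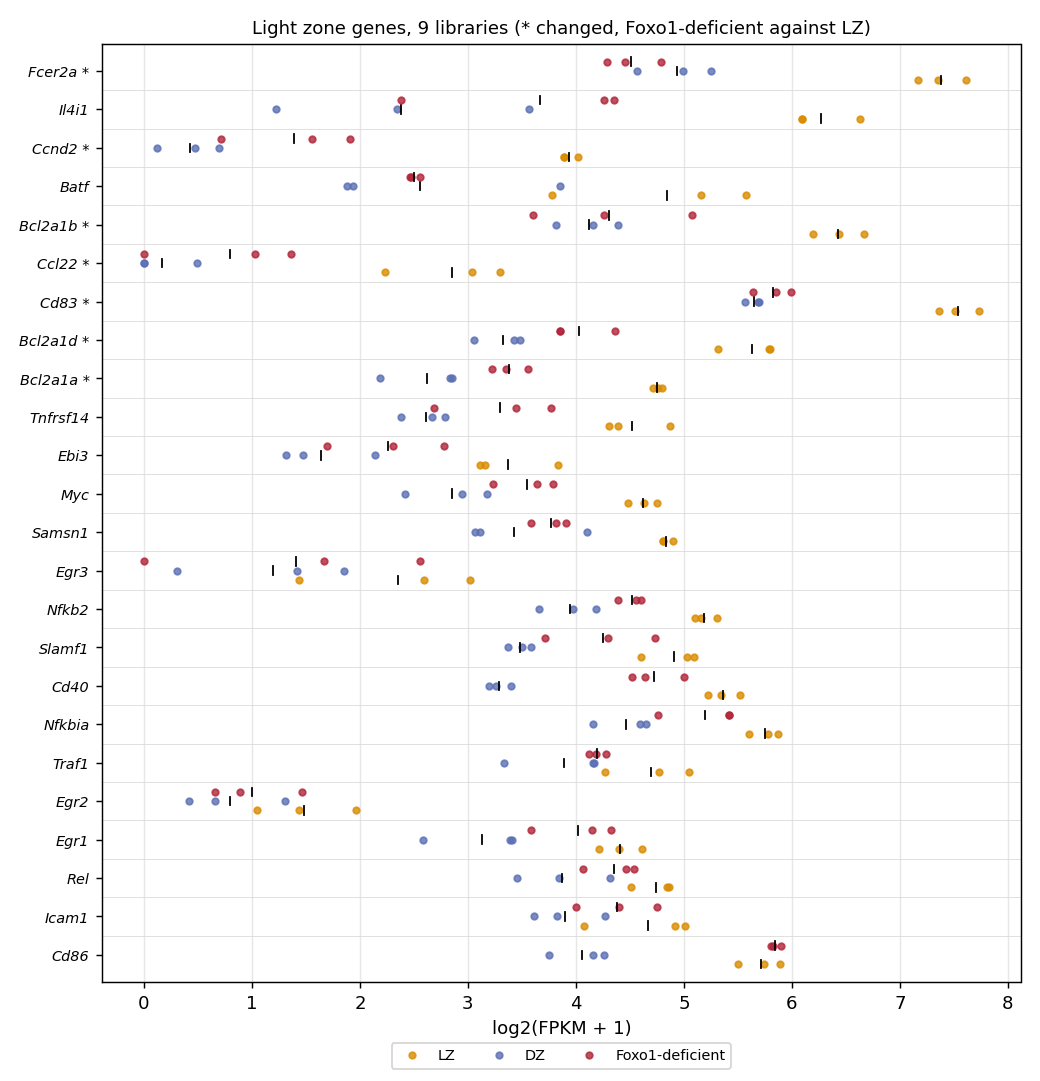
Level of the 24 light zone genes in each library on the log2(FPKM + 1) scale (x axis; 1 point per library, black ticks are group means; orange LZ, blue DZ, red Foxo1-deficient), ordered by the change against LZ, with an asterisk for changed genes. Fcer2a and Cd83 of the Foxo1-deficient libraries sit beside DZ, and Cd86 sits beside LZ.

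The response to CD40 and NF-kB was lower in part, while most of the machinery upstream of it lay within a factor of 2. Of 30 genes of the NF-kB and CD40 response, all tested, 6 changed, all lower (0.983% of all genes), 10 (33.3%, against 52.5% of all genes) lay within a factor of 2, and the median was -0.54 (all genes -0.02). The count lower was 1 without LZ replicate 1 or 2, 2 without LZ replicate 3 or with only the 6 libraries fitted, 3 without Foxo1-deficient replicate 1 or with the replicate block, and 7 with a pseudocount of 5. Tnfaip3, the A20 deubiquitinase that restrains NF-kB, was 13.6, 10.2 and 9.8 in LZ and 3.8, 3.97 and 3.49 in Foxo1-deficient cells (-1.35, SE 0.24, adjusted p = 0.0206). Birc3, the ubiquitin ligase cIAP2, fell from 42, 47.4 and 46.5 to 22.7, 24.1 and 25.4 (-0.88, SE 0.18, adjusted p = 0.0342). Bcl3, a nuclear IkB protein, fell from 16.8, 14.3 and 22.7 to 7.05, 5.18 and 9.27 (-1.22, SE 0.26, adjusted p = 0.0385). In these 3 genes no Foxo1-deficient library reached the lowest LZ library. The other 3 changed members were Bcl2a1a, Bcl2a1d and Ccl22. The calls were lost for Tnfaip3 without LZ replicate 1, 2 or 3 or Foxo1-deficient replicate 3 and in 1 of 9 other fits (adjusted p up to 0.0833), for Birc3 when any 1 of the 6 libraries was left out and in 2 of 9 other fits (up to 0.119), and for Bcl3 without LZ replicate 1, 2 or 3 or Foxo1-deficient replicate 1 or 2 and in 5 of 9 other fits (up to 0.145).

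The NF-kB subunit genes did not pass. Nfkb1 was 34.1, 32.4 and 28.5 against 18.9, 15.8 and 20.2 (-0.76, adjusted p = 0.0698) and Nfkb2 33.4, 38.5 and 34.7 against 19.9, 22.5 and 23.3 (-0.67, adjusted p = 0.116), without overlap in either gene. Relb was 9.51, 12.5 and 18.7 against 9.33, 12.8 and 13.7, Irf1 16, 39.7 and 23.4 against 16.8, 28.1 and 26.2 and Junb 29.8, 14.3 and 19.1 against 20.1, 17.7 and 25.6, and the groups overlapped in all 3. Cd40 itself, the receptor for the T cell ligand, was 39.5, 36.5 and 44.9 in LZ, 30.9, 21.9 and 24 in Foxo1-deficient cells and 8.59, 8.16 and 9.55 in DZ. All its Foxo1-deficient libraries lay below LZ and above DZ, but the change of -0.64 against LZ did not pass (adjusted p = 0.139). Of the 20 genes of the TRAF adaptors and the CD40 proximal machinery, 19 were tested, and none changed under limma or with voom weights (3 with an unadjusted p under 0.05). Within a factor of 2 lay 13 (68.4%, against 52.5% of all genes). These included the kinase gene Ikbkb (14, 13.8 and 16.2 against 17.3, 11.8 and 15.7), the adaptor gene Tank (21.8, 24.5 and 20.3 against 21.3, 19.5 and 20.9), the deubiquitinase gene Cyld (9.63, 13.6 and 14.5 against 14.1, 11.6 and 12.7) and the adaptor gene Bcl10 (37.2, 18.8 and 15.9 against 20.9, 23.5 and 17). Tifa was under the filter on low values.

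Most antigen receptor signalling genes lay within a factor of 2 of LZ. Of 26 genes, 25 were tested (Cd5 was under the filter on low values), 21 (84%, against 52.5% of all genes) lay within a factor of 2, and the median was 0.10. Smaller shifts in both directions were frequent. Every Foxo1-deficient library lay above every LZ library in 8 (against 8.21% of all genes) and below in 5 (against 9.5%). An unadjusted p under 0.05 was found for 8, and 3 were called with voom weights. The kinase gene Btk was 40.7, 34.1 and 38.9 in LZ and 44.4, 32.1 and 44.5 in Foxo1-deficient cells, the phosphatase gene Ptpn6 199, 181 and 197 and 200.1, 199.6 and 149, and the PI3K subunit gene Pik3cd 42.4, 38.8 and 32.9 and 44, 38.9 and 32.9. Cd22, an inhibitory coreceptor, was 177, 196 and 156 in LZ and 199, 178 and 166 in Foxo1-deficient cells (0.04, interval -0.27 to 0.36), against 79.6, 83.8 and 69.2 in DZ. The 1 member that changed was Cd72, an inhibitory coreceptor for semaphorin CD100, which fell from 74.5, 41.3 and 66.3 to 31.4, 14.4 and 22.3 (-1.40, SE 0.29, adjusted p = 0.0366). That call was lost without LZ replicate 1 or 3 or Foxo1-deficient replicate 2 or 3 and in 3 of 9 other fits (adjusted p up to 0.156). Syk, the kinase that opens the cascade, was 87.7, 114 and 104 against 70.9, 55 and 66.5 (-0.66, adjusted p = 0.0698), and Cr2, the complement receptor CD21, 47.4, 55.7 and 42.6 against 76.3, 69.6 and 83.8 (0.65, adjusted p = 0.0784). Neither passed, although the groups did not overlap in either.

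Immediate early genes of the antigen receptor were less settled. Of 26, 20 were tested, and none changed under limma (7 with an unadjusted p under 0.05, 1 called with voom weights). Within a factor of 2 lay 5 (25%, against 52.5% of all genes), with a median of -0.27. Dusp2, a MAP kinase phosphatase gene, was 44.5, 48.1 and 48.6 in LZ and 45.3, 55.8 and 52.1 in Foxo1-deficient cells, and the RNA-binding protein gene Zfp36 was 27.7, 36.1 and 31.2 and 28.9, 27.4 and 24.1. Btg1, an antiproliferative gene, was 40.5, 44.7 and 30.8 and 42.2, 37.7 and 40. Cd69, an early activation marker, ranged within LZ itself from 6.84 to 26.2, and was 4.76, 6.06 and 2.92 in Foxo1-deficient cells (adjusted p = 0.167).

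Most genes of antigen presentation on MHC class II lay within a factor of 2 of LZ. Of 18 genes, 16 were tested (Ctsl was under the filter and H2-Ea was not analysed here), none changed under limma (6 with an unadjusted p under 0.05, 1 called with voom weights), 13 (81.2%, against 52.5% of all genes) lay within a factor of 2, and the median was -0.18. Every Foxo1-deficient library lay below every LZ library in 6 of the 16 (against 9.5% of all genes) and above in 2 (against 8.21%). Ciita, the master regulator of class II genes, was 58, 61.3 and 66.6 in LZ and 73.2, 63.3 and 55.1 in Foxo1-deficient cells (0.04, interval -0.33 to 0.40). Ctss, the cathepsin that trims the invariant chain, was 109.5, 112 and 114 and 112, 108 and 120.1 (0.01, interval -0.38 to 0.41). The groups overlapped in both genes. March1, the ubiquitin ligase that removes class II from the surface, had a change of 0.01, and Lgmn, a lysosomal protease, of 0.03. The class II chains themselves were lower within that bound: H2-Aa was 1329.5, 1168 and 1120.2 in LZ and 1064, 906 and 857 in Foxo1-deficient cells (-0.36, interval -0.64 to -0.07), and H2-Ab1 was 1128, 962 and 1011 and 794, 714 and 643 (-0.53, interval -0.85 to -0.21). Neither passed (adjusted p = 0.235 and 0.112), with no overlap between the groups. In DZ, 9 of the 16 were lower than LZ (1.44% of all genes), with a median of -0.77, and H2-Aa was at 695, 688 and 611. The 3 members outside a factor of 2 were H2-Oa, Ctsb and Cd9. Markers of macrophages, which can also express genes of this list, were higher in the Foxo1-deficient libraries (below). The part of such cells in the values of this list, kept or moved, was not tested. Cd9 was 0, 0.142 and 1.11 in LZ and 6.42, 9.39 and 3.1 in Foxo1-deficient cells (adjusted p = 0.0551).

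Ligands and receptors for T cell help lay within a factor of 2 about as often as all genes. Of 27, 23 were tested, 12 (52.2%, against 52.5% of all genes) lay within a factor of 2, and the median was 0.13. Icosl, which encodes the ICOS ligand that helper T cells bind, was 27.5, 33.2 and 26.4 in LZ and 36.2, 34.2 and 32.1 in Foxo1-deficient cells (0.23, interval -0.26 to 0.73). Slamf6 and Cd48, SLAM family receptors for contact with T cells, had changes of 0.00 (interval -0.66 to 0.66) and -0.14 (-0.66 to 0.38), and Icam2 of 0.14 (-0.42 to 0.69). Il21r, the receptor for IL-21, was 62.6, 65.1 and 58.8 against 46.8, 41.3 and 35.2 (-0.59, adjusted p = 0.122), and Tnfrsf14, the HVEM receptor that engages BTLA, 18.7, 20 and 28.4 against 12.7, 5.43 and 9.93 (-1.22, adjusted p = 0.0711). Both were lower in every library without passing. The single changed member, Sh2d1b1, an adaptor of SLAM receptors that natural killer and myeloid cells also use, was 0, 1.03 and 0.763 in LZ and 4.41, 4.73 and 8.06 in Foxo1-deficient cells (adjusted p = 0.0482). Its call was lost when any 1 of the 6 libraries was left out and in 5 of 8 other fits (adjusted p up to 0.28).

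**Figure D3:**
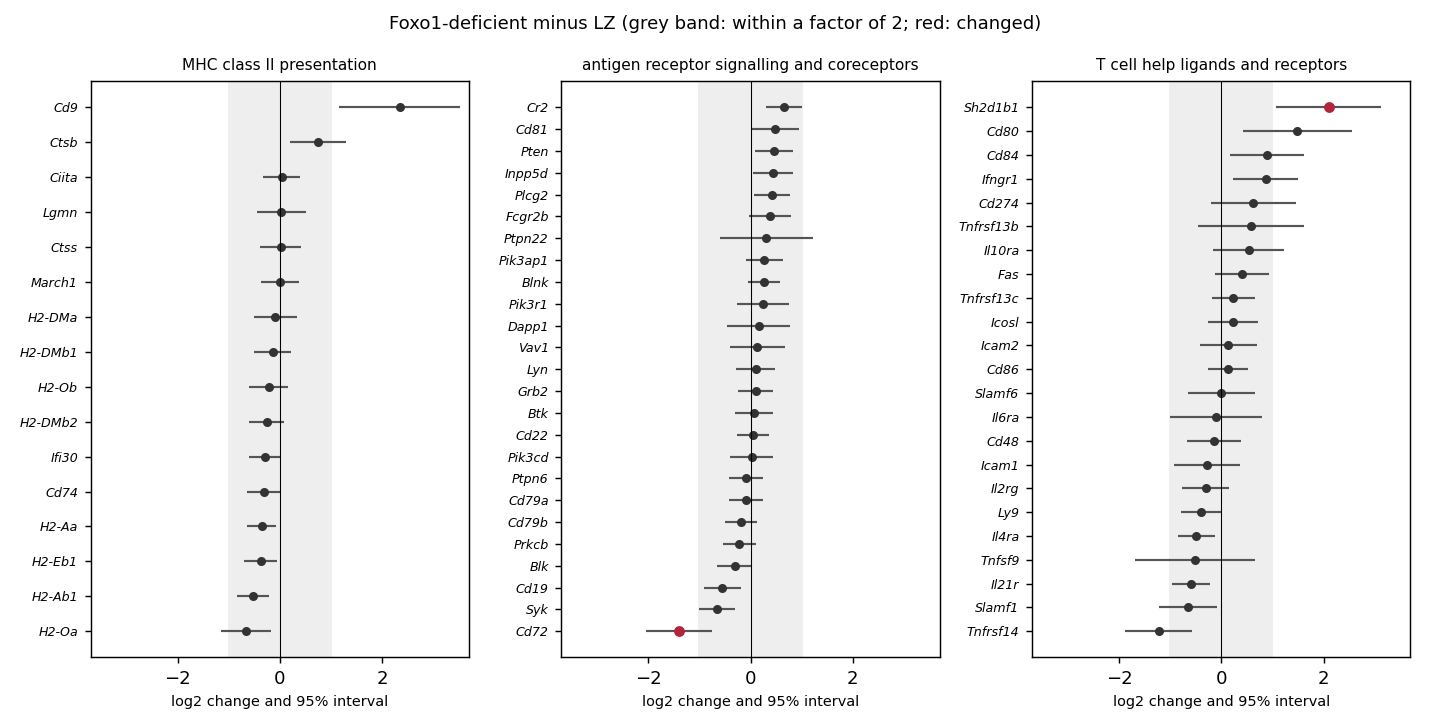
Change (points) and its 95% interval (lines), Foxo1-deficient minus LZ, of each tested gene of 3 lists, on a log2 axis; the grey band spans a factor of 2 and red marks changed genes. The interval lies inside the band for 13 of 16 MHC class II genes, 21 of 25 antigen receptor genes and 12 of 23 T cell help genes.

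Cytokine response genes were lower where they changed. Of 20 genes of the cytokine response and the STAT pathway, 17 were tested, and 2 changed, both lower (0.983% of all genes). Within a factor of 2 lay 9 (52.9%, against 52.5% of all genes), and the median was -0.50. Besides Fcer2a, which IL-4 induces through Stat6, the changed member was Pim1, a STAT-induced survival kinase gene. Pim1 went from 37.8, 42.8 and 53.9 to 26.9, 19.6 and 16 (-1.09, SE 0.20, adjusted p = 0.0246), below DZ as well (57.3, 55.1 and 53.6). Its call was lost without LZ replicate 2 or 3 or Foxo1-deficient replicate 2 or 3 and in 1 of 9 other fits (adjusted p up to 0.0982). The factor and kinase genes did not pass: Stat6 was 18.7, 21.4 and 26.1 against 16.1, 19.5 and 16.6, Jak3 16.2, 21.7 and 13.1 against 14.6, 13.2 and 14.6, and Stat3 22.9, 27.1 and 30.7 against 22.9, 17.3 and 21.1, all within a factor of 2. The groups overlapped in Stat6 and Jak3, and in Stat3 every Foxo1-deficient library lay below every LZ library, the nearest by less than the rounding shows. Bcl6, the repressor on which the germinal center depends, was 53.7, 68.5 and 58 in LZ and 94.5, 81.2 and 77 in Foxo1-deficient cells, higher in every library (0.48, adjusted p = 0.231). It passed with quantile normalization (adjusted p = 0.0487).

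Most of the Myc and ribosome biogenesis genes had lower values, and few passed. The list numbered 32, of which 31 were tested, and holds Myc, genes that make and process ribosomal RNA, and other known Myc targets such as Hspd1 and genes of polyamine and nucleotide synthesis. Of these 28 had a change below 0, 21 had every Foxo1-deficient library below every LZ library (9.5% of all genes), 3 changed, all lower (0.983% of all genes), 6 (19.4%, against 52.5% of all genes) lay within a factor of 2, and the median was -0.74. The count lower was 0 without LZ replicate 2, LZ replicate 3 or Foxo1-deficient replicate 3 and with only the 6 libraries fitted, 1 without LZ replicate 1, 5 with a pseudocount of 5, median centring or quantile normalization, and 8 with voom weights. Gnl3, the nucleolar GTPase nucleostemin, was 26, 26.6 and 33.7 in LZ and 14, 13.3 and 6.64 in Foxo1-deficient cells (-1.33, SE 0.27, adjusted p = 0.0342). Ncl, the nucleolar protein nucleolin, went from 88, 96.9 and 83.8 to 52.2, 56.6 and 51 (-0.74, SE 0.15, adjusted p = 0.0334), and Hspd1, the mitochondrial chaperonin, from 76.6, 97.6 and 84.3 to 46.7, 56.4 and 46.5 (-0.78, SE 0.15, adjusted p = 0.0268). No library of the groups overlapped in these 3 genes, and the falls of Ncl and Hspd1 were under a factor of 2 in size. The calls were lost for Gnl3 without LZ replicate 1, 2 or 3 or Foxo1-deficient replicate 3 and in 3 of 9 other fits (adjusted p up to 0.131), for Ncl when any 1 of the 6 libraries was left out and in 1 of 9 other fits (up to 0.11), and for Hspd1 without LZ replicate 2 or 3 or Foxo1-deficient replicate 1 or 3 and in 1 of 9 other fits (up to 0.0931). Members at the LZ level were Pes1 (0.01, interval -0.51 to 0.52), Nop16 (0.02, -0.70 to 0.73), Ppan (0.03, -0.61 to 0.67) and the polyamine enzyme gene Odc1 (-0.14, -0.51 to 0.22). DZ, set against the same LZ libraries, had a median of -0.75 for this list, with 5 genes lower (1.44% of all genes).

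**Figure D4:**
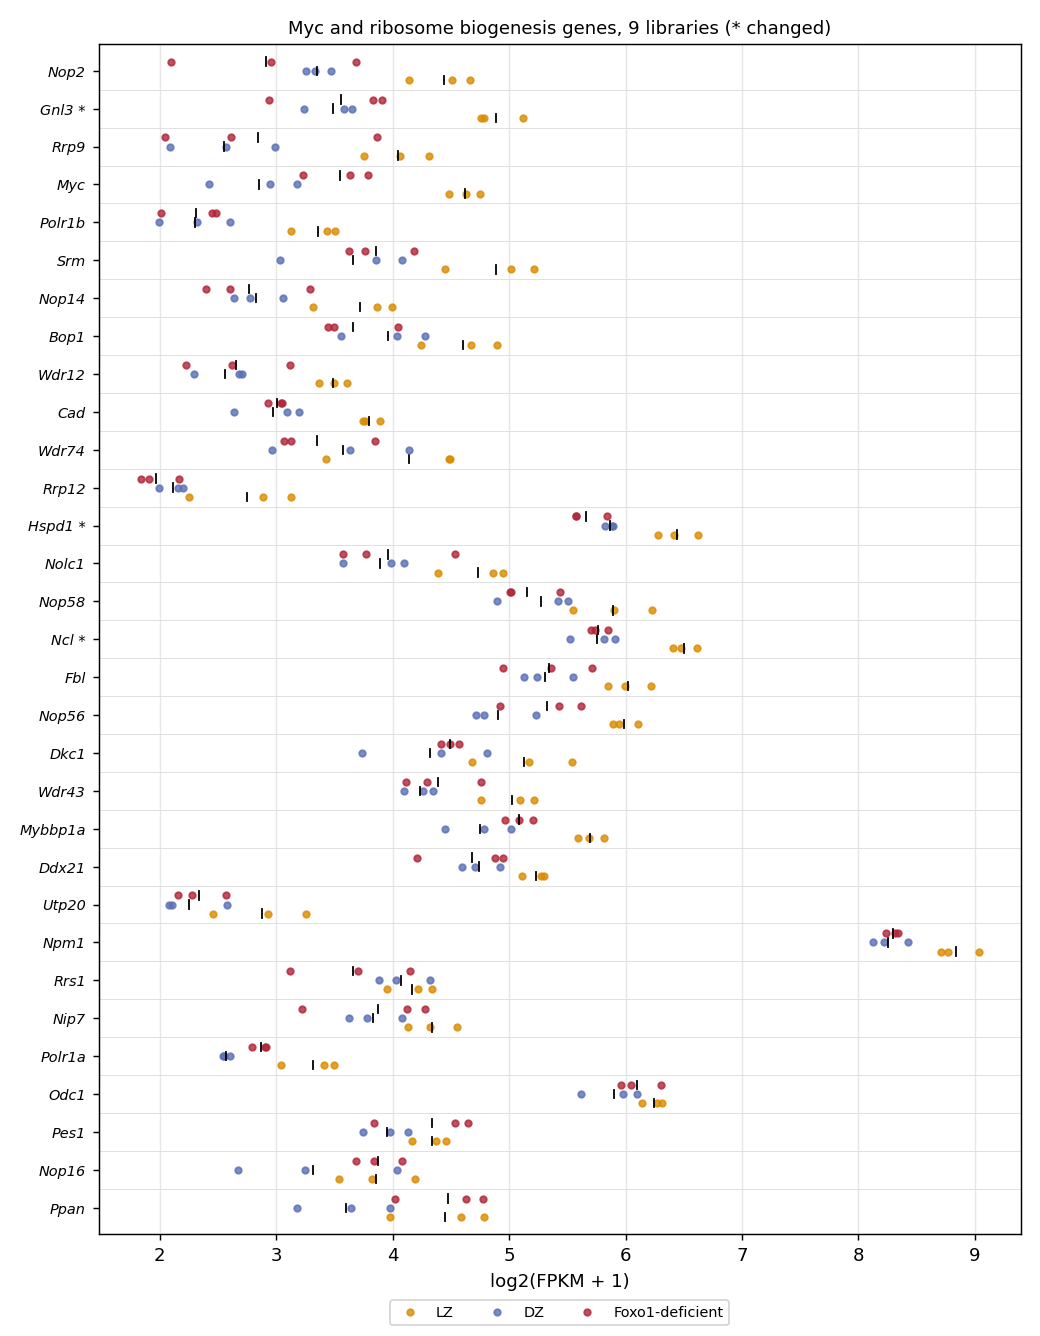
Level of 31 Myc and ribosome biogenesis genes in each library on the log2(FPKM + 1) scale (x axis; 1 point per library, black ticks are group means; orange LZ, blue DZ, red Foxo1-deficient), ordered by the change against LZ, with an asterisk for the 3 changed genes. In 21 of the genes all red points lie left of all orange points.

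Among metabolic genes the medians were nearer to 0. Over all genes 0.983% were lower and 52.5% lay within a factor of 2. In the mTORC1 and amino acid list, 2 of 19 tested genes changed, both lower, 11 lay within a factor of 2, and the median was -0.19. Slc7a5, a subunit of the large neutral amino acid transporter, fell from 25.5, 20.4 and 26.5 to 11, 10.2 and 6.04 (-1.35, SE 0.24, adjusted p = 0.0206), and Asns, asparagine synthetase, from 7.32, 7.27 and 10.9 to 2.15, 2.41 and 0.731 (-1.82, SE 0.32, adjusted p = 0.0198). Slc3a2, the partner chain of Slc7a5, was 20.5, 18.7 and 27.5 against 17.7, 23.4 and 20.9 and the glutamine transporter gene Slc1a5 49.3, 59 and 57.4 against 60, 54.1 and 41, both within a factor of 2. Among 19 tested glycolysis genes 1 changed: Ldha, lactate dehydrogenase, fell from 183, 178 and 166 to 102, 103 and 72.5 (-0.94, SE 0.17, adjusted p = 0.0194). Gpi1 (-0.01, interval -0.39 to 0.37), Pgk1 (-0.28, -0.62 to 0.07) and Gapdh (-0.28, -0.63 to 0.07) lay within a factor of 2, and the median of the list was -0.36. In sterol and lipid synthesis 1 of 22 tested genes changed, the sterol isomerase gene Ebp, from 8.97, 10.3 and 7.73 to 2.49, 2.34 and 4.68 (-1.29, SE 0.28, adjusted p = 0.0423), and 16 lay within a factor of 2, with Srebf2, a regulator of sterol synthesis, at -0.09. None of 25 oxidative phosphorylation genes changed under limma or with voom weights (3 with an unadjusted p under 0.05), and 20 (80%) lay within a factor of 2. Calls ended for Slc7a5 without LZ replicate 1 or 3 and in 1 of 9 other fits (adjusted p up to 0.0833), for Asns without LZ replicate 1, 2 or 3 and in 2 of 9 other fits (up to 0.172), for Ldha without LZ replicate 1, 2 or 3 (up to 0.0825), and for Ebp without LZ replicate 1, 2 or 3 or Foxo1-deficient replicate 1 or 2 and in 5 of 9 other fits (up to 0.153).

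Promoters of the changed genes were searched for 3 motifs. The 250 bases before each RefSeq transcript start (GRCm38.p6) were read on both strands for TGTTTAC (forkhead), GGGA, any base, then TTTCC (NF-kB) and CACGTG (E-box, which Myc and other factors bind). No motif contains another, and no overlap between matches was removed. Of 9669 tested genes 7759 matched a promoter entry, among them 77 of the 95 lower and 56 of the 77 higher genes. TGTTTAC stood in 3 of the 77 lower genes (3.9%; 1190007I07Rik, Gimap3 and Pim1) and 1 of the 56 higher (1.79%; Ptafr), against 2.67% of tested genes and 3.17% of all 32851 promoters. The NF-kB motif stood in 3 lower genes (3.9%; Il16, Neurl3 and Rgs13) and none of the higher (0%), against 0.425% of tested genes and 0.356% of all promoters. CACGTG stood in 13 lower genes (16.9%) and 2 higher (3.57%; Ctsd and Slpi), against 10.3% of tested genes and 6.02% of all promoters. A gene was counted if any of its promoter entries held the motif, while the share of all promoters is per entry, so these 2 kinds of share are unlike. The shares are descriptions without a test, and a match is a description, not a site. Gimap3, Ptafr, Il16 and Neurl3 are named for their match and were chosen after their values were seen. Stretches around a match are shown for 5 named genes that fell, chosen because no exon overlaps them, 5′ to 3′ on the gene's strand, with all motif matches in capitals. The exons are those of GENCODE vM21.
Ldha, plus strand, chr7:46845619-46845704: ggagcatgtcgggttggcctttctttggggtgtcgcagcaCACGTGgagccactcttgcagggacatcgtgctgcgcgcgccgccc
Ddt, minus strand, chr10:75773498-75773583: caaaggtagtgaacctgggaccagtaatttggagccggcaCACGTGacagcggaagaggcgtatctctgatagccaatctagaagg
Tnfaip3, minus strand, chr10:19015411-19015483: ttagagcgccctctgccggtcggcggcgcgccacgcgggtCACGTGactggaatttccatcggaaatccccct
Rgs13, minus strand, chr1:144177488-144177577: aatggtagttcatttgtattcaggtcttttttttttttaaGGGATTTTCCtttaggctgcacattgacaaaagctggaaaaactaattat
1190007I07Rik, minus strand, chr10:82623379-82623464: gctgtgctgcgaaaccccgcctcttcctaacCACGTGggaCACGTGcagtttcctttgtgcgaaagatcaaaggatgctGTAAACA
The matches start 145 (Ldha), 169 (Ddt), 33 (Tnfaip3) and 165 (Rgs13) bases before the transcript start. The 1190007I07Rik stretch holds a pair of E-boxes and, at its 3′ end, the forkhead motif on the opposite strand, GTAAACA.

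Most G1 and S phase genes lay within a factor of 2 of LZ, while most G2 and M phase genes had a change above 0 that did not pass. Of 22 D cyclin and G1 genes 19 were tested, and Ccnd2 alone changed, while 12 (63.2%, against 52.5% of all genes) lay within a factor of 2. Ccnd3, the D cyclin of the dividing germinal center, was 64, 79.8 and 71.4 in LZ and 87, 82.6 and 75.4 in Foxo1-deficient cells (0.19, interval -0.16 to 0.54). E2f1 was 15.1, 8.83 and 12.9 against 9.41, 11.1 and 8.69, E2f2 18.4, 17.6 and 15.4 against 18.5, 19 and 18.1, and Cdk2 16.8, 25 and 24.2 against 24.7, 22 and 25.2, all overlapping. Ccnd1 was under the filter. Of 28 S phase genes none changed under limma or with voom weights (3 with an unadjusted p under 0.05), and 26 (92.9%) lay within a factor of 2, with a median of -0.08. For G2 and M phase the median was 0.44: none of 30 changed under limma (15 with an unadjusted p under 0.05, 2 called with voom weights), 20 lay within a factor of 2, 26 had a change above 0, and in 13 every Foxo1-deficient library lay above every LZ library (against 8.21% of all genes). Cenpf, a kinetochore protein gene, was 4.77, 6.31 and 5.79 in LZ and 11.9, 12 and 10.4 in Foxo1-deficient cells (adjusted p = 0.062), and Mki67 66.2, 98 and 85.7 and 123, 122 and 129 (adjusted p = 0.0885). In DZ 8 of these 30 were higher than LZ (0.496% of all genes), with a median of 0.57. Here too the missing zone gate cannot be told apart from genotype.

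Dark zone genes had no common direction. Of 13, 12 were tested, 1 changed higher (0.796% of all genes) and 2 lower (0.983%), and the median was 0.22. Foxo1, the targeted gene, is among the 2 lower, and its fall was set by the design. Polh, an error-prone DNA polymerase that acts in hypermutation, was 15.5, 16.2 and 11.2 in LZ, 25.4, 30.1 and 30 in Foxo1-deficient cells and 40.8, 47.6 and 34.7 in DZ (0.96 against LZ, adjusted p = 0.0342). Besides Foxo1, the forkhead gene Foxp1 fell, from 15.7, 12.7 and 10.8 to 6.81, 2.65 and 3.88 (-1.43, adjusted p = 0.032). Gcet2, a signalling adaptor, was 10.8, 17 and 17.1 in Foxo1-deficient cells and 17, 20.7 and 16.2 in LZ (-0.27, interval -0.72 to 0.18), against 74.8, 73.3 and 62.3 in DZ. Of 24 hypermutation and repair genes only Polh changed (0.796% of all genes were higher), 14 (58.3%, against 52.5% of all genes) lay within a factor of 2, and 9 were neither. Every Foxo1-deficient library lay above every LZ library in 9 (against 8.21% of all genes) and below in 2 (against 9.5%). An unadjusted p under 0.05 was found for 7. Of 27 genes reported as Foxo targets in lymphocytes, 19 were tested and Foxo1 itself alone changed (0.983% of all genes were lower). Of the 19, 9 (47.4%, against 52.5% of all genes) lay within a factor of 2, 9 were neither, and 4 had an unadjusted p under 0.05. Calls ended for Polh when any 1 of the 6 libraries was left out and in 2 of 9 other fits (adjusted p up to 0.122), and for Foxp1 without LZ replicate 1, 2 or 3 or Foxo1-deficient replicate 2 or 3 and in 2 of 9 other fits (up to 0.133).

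Genes of germinal center identity mostly lay within a factor of 2. Of 24 tested identity genes 18 (75%, against 52.5% of all genes) lay within a factor of 2, 1 changed higher (0.796% of all genes) and 2 lower (0.983%). The median was 0.28, with 19 changes above 0, and 10 had an unadjusted p under 0.05. Every Foxo1-deficient library lay above every LZ library in 10 (against 8.21% of all genes) and below in 2 (against 9.5%). Id3, an inhibitor of E proteins, rose from 38.2, 34 and 34.4 to 60.8, 70.1 and 50.5 (0.74, adjusted p = 0.0461). Rgs13, a regulator that dampens chemokine receptor signalling, fell from 87.2, 109.8 and 85.8 to 44.6, 48.1 and 54 (-0.93, SE 0.16, adjusted p = 0.0156). Bach2, a repressor that keeps B cells from plasma cell fate, fell from 16.2, 23.5 and 20.4 to 8.77, 5.09 and 11.3 (-1.21, adjusted p = 0.0445), with DZ at 35.7, 28.7 and 29.6. The calls were lost for Id3 without LZ replicate 1, 2 or 3 or Foxo1-deficient replicate 1 or 2 and in 4 of 9 other fits (adjusted p up to 0.142), for Rgs13 without LZ replicate 2 (0.0654), and for Bach2 without LZ replicate 1, 2 or 3 or Foxo1-deficient replicate 1 or 2 and in 4 of 9 other fits (up to 0.137).

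Among 12 tested plasma cell genes 2 were higher (0.796% of all genes), and among 12 tested naive and memory genes 2 were lower (0.983% of all genes). Igj, the antibody J chain, was 100, 96.3 and 70.2 in LZ, 291, 285 and 185 in Foxo1-deficient cells and 235, 213 and 153 in DZ (1.49, SE 0.22, adjusted p = 0.00757). Slpi, a protease inhibitor that myeloid cells also make, was 15.4, 5.86 and 0.93 in LZ and 89.8, 151 and 96.7 in Foxo1-deficient cells (4.20, adjusted p = 0.00994). Both passed under every alternative run. Prdm1, Sdc1 and Tnfrsf17, which define plasma cells, were under the filter. The 2 lower naive and memory genes were Nt5e and Ccr6. Nt5e, the ectonucleotidase CD73, went from 7.25, 5.34 and 5.65 to 2.39, 1.64 and 2.24 (-1.19, adjusted p = 0.0482). Ccr6 was 1.07, 3.13 and 3.11 in LZ and listed at 0 in all 3 Foxo1-deficient and all 3 DZ libraries (adjusted p = 0.0317). Calls ended for Nt5e when any 1 of the 6 libraries was left out and in 6 of 9 other fits (adjusted p up to 0.159), and for Ccr6 without LZ replicate 2 or 3 or Foxo1-deficient replicate 1, 2 or 3 and in 4 of 8 other fits (up to 0.333).

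Migration genes followed no single direction: of 21 tested, Rgs10 rose and Rgs13 and Ccr6 fell (over all genes 0.796% were higher and 0.983% lower). Rgs10, a G protein regulator that myeloid cells also express, was 18.6, 9.44 and 14.7 in LZ and 42.3, 52.4 and 80.5 in Foxo1-deficient cells (1.96, SE 0.32, adjusted p = 0.0127), a call lost without LZ replicate 2 (0.058). Cxcr5, the receptor that draws B cells to the follicle, was 58.5, 75.8 and 60 and 76.1, 67.4 and 59.6 (0.07, interval -0.30 to 0.44). S1pr2, which confines cells to the germinal center, was 51.6, 50 and 62.6 and 88.4, 60.4 and 82.6 (0.48, interval 0.07 to 0.88). Of 22 tested apoptosis regulators the 3 Bcl2a1 genes, near-identical copies already counted among the light zone genes, changed, all lower (0.983% of all genes). Within a factor of 2 lay 14 (63.6%, against 52.5% of all genes), among them Mcl1 (78.1, 93.8 and 65.6 against 84.1, 90.6 and 88.7). Bcl2l1, which encodes the survival protein Bcl-xL, was 8.35, 9.68 and 8.66 in LZ and 0.975, 5.18 and 2.33 in Foxo1-deficient cells (-1.52, adjusted p = 0.077), lower in every library without passing.

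The 15 largest falls with no overlap between the groups included Fcer2a, Foxo1, Ccnd2 and Bcl2a1b, described above. Of the 95 lower genes, 90 had an LZ mean of at least 5, and 14 had a Foxo1-deficient library listed at 0. Gstt1 (chr10:75246558-75261329), a glutathione transferase, was 9.61, 4.05 and 16.5 in LZ and 0.317, 0 and 0 in Foxo1-deficient cells (adjusted p = 0.0044), and its neighbour Ddt (chr10:75233978-75236119), a tautomerase of the MIF family, was 52.4, 49.7 and 86.1 and 7.17, 21.9 and 8.89 (-2.33, SE 0.34, adjusted p = 0.00663). Plscr1, a phospholipid scramblase, was 5.28, 5.3 and 3.47 and 0.341, 0 and 0 (adjusted p = 0.00567). Gstt1, Ddt and Plscr1 passed whichever single library was left out, and the calls of Gstt1 and Plscr1 were lost with voom weights alone (adjusted p = 0.246 and 0.184).

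The other large falls were spread over metabolic enzymes, a transporter and noncoding RNA. Fah, the last enzyme of tyrosine breakdown, was 16.3, 19.8 and 10.1 in LZ and 3.25, 4.32 and 0 in Foxo1-deficient cells (adjusted p = 0.0482), and Gcsh, a subunit of the glycine cleavage system, 7.85, 7.51 and 14.3 and 2.22, 2.44 and 0 (adjusted p = 0.0385). Slc2a6, a hexose transporter, was 15.9, 6.93 and 9.29 and 1.34, 1.02 and 2.75 (adjusted p = 0.0399), and Dus4l, a dihydrouridine synthase, 2.85, 6.84 and 2.6 and 0.253, 0.0886 and 0 (adjusted p = 0.0141). Tmem106c was 5.91, 5.46 and 11.6 and 0.627, 1.1 and 0.713 (adjusted p = 0.0224), Gm10865 6.42, 5.82 and 5.03 and 0, 1.91 and 0 (adjusted p = 0.0317), and 1190007I07Rik 13.9, 7.7 and 3.64 and 0.742, 0 and 0 (adjusted p = 0.032). Snora64, a small nucleolar RNA, was 244, 193 and 257 in LZ, 0, 0 and 238 in DZ and listed at 0 in all 3 Foxo1-deficient libraries (adjusted p = 0.032). Each of these 8 calls was lost in some fits. Dus4l lost its call without LZ replicate 2 and in 2 of 8 other fits, Slc2a6 without LZ replicate 1, 2 or 3 or Foxo1-deficient replicate 1 or 2 and in 5 of 9 other fits, and Tmem106c without LZ replicate 1, 2 or 3 or Foxo1-deficient replicate 1 or 3 and in 2 of 9 other fits. For Gcsh this was so without LZ replicate 1, 2 or 3 or Foxo1-deficient replicate 3 and in 6 of 9 other fits, for Fah without LZ replicate 1, 2 or 3 or Foxo1-deficient replicate 1 or 3 and in 5 of 9 other fits, and for Gm10865 without LZ replicate 1, 2 or 3 or Foxo1-deficient replicate 1 or 3 and in 4 of 9 other fits. For 1190007I07Rik it was so without LZ replicate 1 or 2 or Foxo1-deficient replicate 2 or 3 and in 2 of 8 other fits, and for Snora64 when any 1 of the 6 libraries was left out and in 3 of 9 other fits. The highest adjusted p was 0.28 for Dus4l, 0.159 for Slc2a6, 0.254 for Tmem106c, 0.234 for Gcsh, 0.192 for Fah, 0.385 for Gm10865, 0.366 for 1190007I07Rik and 0.124 for Snora64.

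Of the 15 largest rises, 7 are on lists of markers of other spleen cells. Of the 77 higher genes, 34 were listed at 0 in all 3 LZ libraries, 48 had an LZ mean under 1, 21 had an LZ mean of at least 5, and 17 belong to a list of markers of other cells. Genes at 0 in all LZ libraries were tested only where every Foxo1-deficient library reached an FPKM of 1. S100a8 and S100a9, calcium-binding proteins of neutrophils and monocytes, were listed at 0 in every LZ library and at 21.1, 54.4 and 44.9 and 52.5, 56.6 and 80.5 in the Foxo1-deficient libraries (adjusted p = 2.4e-05 and 4.77e-05). Lyz2, the lysozyme of macrophages, was 0.174, 0 and 0 in LZ and 51.6, 61.2 and 127 in Foxo1-deficient cells (adjusted p = 1.19e-05), and its near-identical neighbour Lyz1 6.79, 18.8 and 12 from 0 in LZ. Tyrobp and Fcer1g, signalling adaptors of myeloid cells, were at 0 in LZ and 19.3, 21.8 and 23.9 and 4.36, 15.3 and 15.1. Beta-s, a hemoglobin chain whose reads can mix with those of Hbb-b2, was 5.8, 10.2 and 20.1 in LZ and 109.6, 87.5 and 321 in Foxo1-deficient cells (adjusted p = 0.00503). With voom weights the calls of Lyz2, Lyz1, S100a8, Tyrobp and Fcer1g were lost (adjusted p = 0.109, 0.118, 0.102, 0.0585 and 0.192), while S100a9 and Beta-s passed.

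Apart from Slpi, described above, the other large rises were as follows. S100a4 was 20.1, 14.5 and 25.6, the chemokine gene Ccl6 7.83, 3.6 and 11.1, the leukotriene gene Alox5ap 2.24, 6.18 and 16.1 and Hes1, a target of Notch signalling, 9.11, 9.33 and 7.07 in Foxo1-deficient cells, all from 0 in LZ. Plac8 was 0, 2.29 and 0 in LZ and 22, 14.4 and 30.4 in Foxo1-deficient cells, and Pla2g7, a lipase of macrophages, 0.347, 1.73 and 0.0914 and 11.3, 12.3 and 19. Gm5779 was 0.633, 4.4 and 4 and 27.2, 23.7 and 21.9. Adjusted p was 2.4e-05, 0.00267, 0.0162, 0.000395, 0.00819, 0.00563 and 0.0191 for these 7. All lost their call with voom weights (adjusted p up to 0.105, 0.152, 0.249, 0.0828, 0.196, 0.115 and 0.0801), Plac8 and Gm5779 also with a pseudocount of 0.1, Gm5779 with no filter, and Alox5ap without LZ replicate 1, 2 or 3 and with only the 6 libraries fitted.

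Markers of other cells were read as whole lists. Over all genes 0.796% were higher, and in 8.21% every Foxo1-deficient library lay above every LZ library. A marker at 0 in all 3 LZ libraries was tested only if every Foxo1-deficient library reached an FPKM of 1. The counts of tested markers were thus fixed in part by the filter, while the sums take in untested markers too. Of 14 tested monocyte, macrophage and dendritic cell markers 10 were higher (1 with voom weights, 6 without LZ replicate 1, 2 or 3 or Foxo1-deficient replicate 3 or with only the 6 libraries fitted, 4 with the FPKM minimum of 5), and the summed FPKM of the 23 markers was 40.1, 51.3 and 29.8 in LZ and 168, 201 and 303 in Foxo1-deficient cells. All but Flt3 of the 14 had every Foxo1-deficient library above every LZ library. Neutrophil markers, 3 of 4 tested higher (2 with voom weights), summed to 4.23, 6.54 and 4.12 in LZ and 91.2, 140.2 and 145 in Foxo1-deficient cells. Erythroid and platelet markers, 4 of 6 tested higher (2 with voom weights, without LZ replicate 1 or 3, with only the 6 libraries fitted or with the FPKM minimum of 5), summed to 42.7, 49.5 and 67.3 in LZ and 214, 184 and 567 in Foxo1-deficient cells. Stromal and follicular dendritic cell markers summed to 39.5, 37.9 and 35.5 in LZ and 61.1, 47.4 and 63.9 in Foxo1-deficient cells. By sum, in these 4 lists every Foxo1-deficient library lay above every LZ library. T cell markers summed to 35.1, 30.2 and 28 in LZ and 18.6, 20.7 and 26.6 in Foxo1-deficient cells, with every Foxo1-deficient library below every LZ library. Natural killer cell sums were low, at 2.05, 2.85 and 2.62 in LZ and 1.88, 2.02 and 0.0469 in Foxo1-deficient cells, again without overlap. None of the 2 T cell, 2 stromal and 1 natural killer cell markers tested changed under limma or with voom weights (0, 1 and 1 with an unadjusted p under 0.05). Mpo, Elane and Prtn3, granule genes of neutrophil precursors, and the monocyte gene Cd14 were listed at 0 in all 6 libraries. The part of these cells in the rises, or in the falls of B cell genes, was not tested, and genes such as Slpi, Rgs10 and Sh2d1b1 stand under the same limit.

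**Figure D5:**
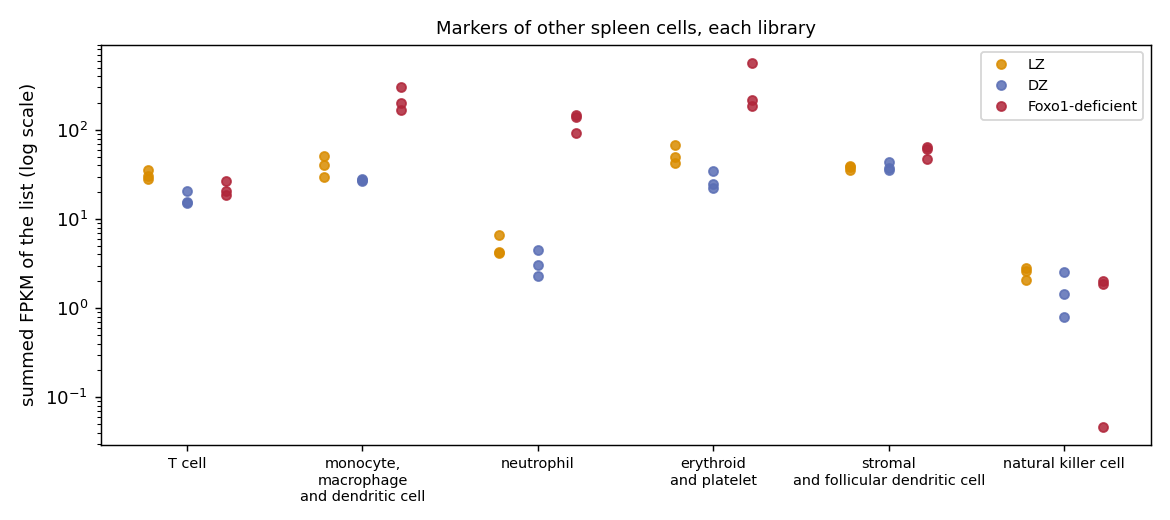
Summed FPKM of the markers of 6 kinds of other spleen cell in each library (log y axis; 1 point per library; orange LZ, blue DZ, red Foxo1-deficient). The sums of the myeloid, neutrophil, erythroid and, by less, stromal lists are higher in all 3 Foxo1-deficient libraries than in any LZ library; the lowest point is a natural killer cell sum of 0.0469.

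Other members of those lists were also higher. Csf1r, the receptor for macrophage colony-stimulating factor, was 0, 0 and 0 in LZ and 3.42, 4.53 and 6.37 in Foxo1-deficient cells (adjusted p = 0.00257), and Csf3r, the receptor for its granulocyte counterpart, 0.941, 0.72 and 0.934 and 8.2, 5.74 and 10.2 (adjusted p = 0.0044). Ccr2, a chemokine receptor of monocytes, was 0, 0 and 0 and 4.9, 1.92 and 3.24 (adjusted p = 0.0103), Hmox1, a heme-degrading enzyme, 0.216, 0 and 0 and 4.43, 3.33 and 8.79 (adjusted p = 0.0235), and Ctsd, a lysosomal protease that B cells also express, 5.93, 7.08 and 5.98 and 12.9, 20 and 16.9 (adjusted p = 0.022). Among erythroid genes, Alas2, the first enzyme of heme synthesis, was 0, 0.895 and 0 and 2.52, 2.48 and 5.1 (adjusted p = 0.0359), and Hbb-b2 16.1, 18.5 and 24.2 and 82.6, 74 and 212 (adjusted p = 0.00567). The passing of the threshold ended for Ccr2 in 2 of 8 other fits (adjusted p up to 0.109), Csf1r in 1 of 8 other fits (0.0661), Hmox1 without LZ replicate 1, 2 or 3 or Foxo1-deficient replicate 3 and in 3 of 8 other fits (up to 0.257), Ctsd without LZ replicate 1, 2 or 3 or Foxo1-deficient replicate 2 or 3 and in 2 of 9 other fits (up to 0.0814) and Alas2 without LZ replicate 1 or 3 or Foxo1-deficient replicate 1, 2 or 3 and in 4 of 8 other fits (up to 0.307). Of 13 tested interferon genes none changed under limma or with voom weights (1 with an unadjusted p under 0.05), with a median of -0.24. Of 13 tested stress genes none changed under limma (5 with an unadjusted p under 0.05, 2 called with voom weights), with a median of -0.41.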

How the data were processed

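RNA-seq of about 10000 sorted cells per library gave 1 gene table for each of 9 libraries. The values are FPKM with a 95% interval, computed by the authors and deposited per gene. The build mm9, TopHat2 2.0.8 and Cufflinks 2.1.1 are named in the submitters' processing notes, with no role or order. Strand is not stated. Interval bounds served only to estimate relative depth and implied fragments. Of 23700 entries, 826 were left out for a repeated symbol (716 entries of 250 symbols) or a status other than OK (292), and of the remaining 22874 genes the 9669 that reached an FPKM of 1 in 3 or more of the 6 libraries were tested. log2(FPKM + 1) of all 9 libraries was fitted as 3 group means with limma 3.58.1 (R 4.3.3, empirical Bayes with a mean trend) without a block, and p-values were adjusted over all tested genes. Alternatives were other pseudocounts, other filters, the 6 libraries alone, a replicate block, median centring, quantile normalization, voom weights and leaving out each library. The code was tested on simulated data. Promoter sequences came from RefSeq (GRCm38.p6).

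Named by rule were Foxo1 and the sort genes, the 15 largest rises and falls past the threshold without overlap between groups, up to 8 changed members of each list, and, in the lists on light zone functions, growth and cell cycle entry, up to 4 members of least change with an LZ mean of at least 10. Batf, Bcl2l1, Cd40, Cd69, Cd79a, Cd9, Cenpf, Cr2, Cxcr5, Gcet2, H2-Aa, H2-Ab1, Icosl, Il21r, Il4i1, Mcl1, Mki67, Myc, Nfkb1, Nfkb2, Pax5, S1pr2, Syk and Tnfrsf14 stand outside it and were chosen after their values were seen. The members, lists and tests were chosen with earlier results of these data known. Results for some genes are not reported here.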

Additional observations from a re-analysis of the deposited data

How the results depend on the processing

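Against 172 changed genes (77 higher, 95 lower) and 5079 within a factor of 2, a pseudocount of 0.1 gave 114 changed and 47 higher, and an FPKM minimum of 5 gave 110 changed and 37 higher. With only the 6 libraries fitted 70 changed, 33 higher and 37 lower. Quantile normalization gave 117 higher and voom weights 44. A pseudocount of 5 put 8684 genes within a factor of 2, and no filter on low values 7888. Leaving out 1 library gave 64 to 154 changed, 37 to 58 higher and 24 to 96 lower. The cause of these moves was not tested. No call of a gene named by rule reversed under any alternative. Of 64 genes named by rule that were called, 28 passed in all 6 fits that left out 1 library and 13 passed under every alternative. Voom weights ended 38 of the 64 calls, the fit of 6 libraries 29, leaving out an LZ library 30 to 33 and a Foxo1-deficient library 18 to 21, a pseudocount of 0.1 or no filter 18 each, and the replicate block 11. Median centring and quantile normalization ended none of them.

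With the replicate number as a block, 158 genes changed (59 higher, 99 lower), of which 136 were among the 172. Whether same-numbered libraries came from the same animal is not in the labels. Deviations from the group means correlated at 0.122, 0.0593 and -0.0523 between same-numbered LZ and Foxo1-deficient libraries. Between libraries of unlike number the range was -0.153 to 0.0714. With 3 libraries a group these values cannot decide whether the numbers pair the libraries. With 3 libraries a group and relative depths of 0.832 to 1.11, 4422 of 9669 genes could be placed neither as changed nor within a factor of 2. Strand, and reads shared by near-identical copies, also limit single genes.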

Other observations

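Some changed genes outside the rule lay side by side on a chromosome (mm9), and were chosen after their values were seen. Whether their calls last in the alternative fits was not examined. On chromosome 6, Gimap4 (62.9, 84.7 and 62.9 in LZ, 19.4, 23.6 and 15.5 in Foxo1-deficient cells, adjusted p = 0.00371), Gimap3 (45, 31.3 and 30.4 and 10.5, 10.6 and 7.19, 0.00757), Gimap6 (67.8, 76.9 and 66.8 and 37.5, 30 and 32.9, 0.0131) and Gimap7 (24.8, 29.5 and 22.2 and 5.33, 11.6 and 5.24, 0.0101), small GTPases of lymphocytes, were lower by limma. Gimap1, Gimap5, Gimap8 and Gimap9 of the same cluster did not pass (adjusted p = 0.246, 0.51, 0.654 and 0.637). On chromosome 10, Gstt2 (26.5, 26.4 and 22.8 in LZ, 4.76, 6.89 and 7.1 in Foxo1-deficient cells, adjusted p = 0.00257) and Mif, a cytokine gene (189, 185 and 229 and 71.7, 53 and 63.8, 0.000443), were lower along with their neighbours Gstt1 and Ddt, while Gstt3 did not pass (adjusted p = 0.147).

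Other changed genes outside the rule, also chosen after their values were seen, are given singly, without a count of their kind. Gars and Aars, which charge transfer RNAs with glycine and alanine, were 50.7, 58.3 and 54.6 and 20.1, 22.1 and 22.2 in LZ and 25.1, 26.2 and 23.5 and 12.3, 13.1 and 8.96 in Foxo1-deficient cells (adjusted p = 0.00653 and 0.0497). The initiation factor genes Eif4a1 and Eif3b fell by 0.70 and 0.82 (adjusted p = 0.0268 and 0.0268). Among the rises were Id2, an inhibitor of E proteins like Id3, from 7.78, 6.85 and 5.27 to 19.3, 14.9 and 21.9 (1.37, adjusted p = 0.0482), and Vpreb3, a B lineage chaperone of the immunoglobulin light chain, from 69.3, 74.2 and 62 to 166, 114 and 189 (1.15, adjusted p = 0.0101). Adjusted p-values are from limma over all genes, and whether these calls last in the alternative fits was not examined either.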
